A study of Mus musculus with 6 samples.

Results

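The comparison described here is that of sorted motor neurons with GFP-off cells on the wild-type-labelled arrays: 3 of the 6 arrays of the series, 2 of motor neurons and 1 of GFP-off cells. The arrays were chosen by their labels alone, and the probes by 1 rule, that a non-control probe be called well above background by the scanner software on both motor neuron arrays or on the GFP-off array. This kept 32513 of 55669 probes, which stood for 14628 named genes. All cells came from trypsinised spinal cord of mouse embryos at E12.5 that carried the reporter Hb9::GFP, and were separated by flow cytometry. The reporter uses the regulatory DNA of Hb9 (Mnx1) to mark motor neurons, so "motor neuron" here means GFP-on. The GFP-off fraction is every other cell the dissociated cord released. The embryos were wild type at mir-17~92 according to their labels; the other 3 arrays carried RNA of the same 2 fractions from mir-17~92 -/- embryos with the same reporter, 2 arrays of motor neurons and 1 of GFP-off cells. The array identifiers give motor neuron replicate 1 and the GFP-off array the same tag, apart from a minus sign, and replicate 2 another; the labels do not say what a tag stands for. Nothing in them says how many embryos went into an array or whether replicates came from separate litters, so the p-values below measure only the spread between these arrays, which may be technical.

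Spinal motor neurons arise from ventral progenitors and are the cells that send axons out of the cord to muscle. They release acetylcholine, which choline acetyltransferase (Chat) makes and the vesicular transporter Slc18a3 loads into vesicles. Their identity is set by a complex of LIM-homeodomain factors, in which Isl1 works together with Lhx3 or Lhx4, and by the homeodomain factor Mnx1. The complex later gives way to factors that divide motor neurons into columns and pools. The rest of the cord at this stage holds dividing progenitors, many classes of interneuron, glial precursors, vessels and blood, and pieces of dorsal root ganglion, meninges or muscle can come along in dissection.

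Values are log2 processed signals minus the 75th percentile of the array, so 0 is the signal of a probe at that percentile. The 75th percentile itself was a processed signal of 51.0 and 65.8 on motor neuron replicates 1 and 2 and of 378 on the GFP-off array, and 41.0%, 43.9% and 58.9% of spots were well above background. On the scaled log2 scale the lowest signal called well above background was -2.18 and -2.33 on the motor neuron arrays but -5.11 on the GFP-off array. A transcript of low level could therefore be seen in GFP-off cells and not in motor neurons, and the part of this in the counts below was not tested. Over the 20538 probes above background on all 3 arrays, Pearson's r was 0.927 between the motor neuron arrays, and 0.884 and 0.812 between motor neuron replicates 1 and 2 and the GFP-off array. With knockout-labelled motor neuron replicates 1 and 2, replicate 1 gave 0.898 and 0.857 and replicate 2 gave 0.796 and 0.744. Those knockout-labelled motor neuron arrays gave 0.930 and 0.950 with the wild-type-labelled GFP-off array. By these values the arrays did not group by cell fraction alone. These are descriptions across probes, which are not independent. Among the 10458 genes above background on all 3 arrays, the median absolute difference between the motor neuron replicates was 0.64, against 0.32 for the same genes between the knockout-labelled motor neuron replicates. In a bulk sample, fewer cells of a type and less RNA per cell cannot be told apart.

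The labels were checked against their genes. Mnx1, from which the reporter is built, had no matched probe. Mir17hg, the host transcript of the mir-17~92 microRNAs, gave -2.46 (below background) and 2.70 in wild-type-labelled motor neurons and -1.39 in the GFP-off cells beside them. The knockout-labelled arrays gave higher values, 4.38 and 4.59 in motor neurons and 4.43 in GFP-off cells, the opposite of what a probe inside the deletion would show. Where the probe lies was not known here, and genotypes are named as labelled. The 4 motor neuron markers Chat, Slc18a3, Lhx3 and Lhx4 were each higher on both motor neuron arrays than on the GFP-off array, with values given below. Other motor neuron genes were less clear. Isl1 stood at about the same level in both fractions, Isl2 was higher without passing the test, and Slc5a7 was below background on both motor neuron arrays.

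The promoters of 5 genes are shown because the results turn on their genes: 3 motor neuron markers, 1 of the globin genes that fell, and Alas2, the erythroid enzyme of haem synthesis. Each runs 5′ to 3′ on the gene's strand from 250 bases before to 50 bases after the RefSeq start, in assembly GRCm38.p6. Capitals mark CCAAT, the box bound by NF-Y and related factors, and AGATAA, the letters of a GATA factor site, on either strand. The TAATTA core bound by many homeodomain proteins was searched too and is in none of the 5. No matches overlapped.
Lhx4, chr1:155741978-155742277, minus strand: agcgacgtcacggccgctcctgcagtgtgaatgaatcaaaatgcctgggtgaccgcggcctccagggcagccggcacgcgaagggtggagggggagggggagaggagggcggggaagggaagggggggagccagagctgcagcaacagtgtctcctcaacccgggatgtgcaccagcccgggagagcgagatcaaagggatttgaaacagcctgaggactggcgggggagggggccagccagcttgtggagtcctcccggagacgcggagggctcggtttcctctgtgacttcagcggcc
Chat, chr14:32465860-32466159, minus strand: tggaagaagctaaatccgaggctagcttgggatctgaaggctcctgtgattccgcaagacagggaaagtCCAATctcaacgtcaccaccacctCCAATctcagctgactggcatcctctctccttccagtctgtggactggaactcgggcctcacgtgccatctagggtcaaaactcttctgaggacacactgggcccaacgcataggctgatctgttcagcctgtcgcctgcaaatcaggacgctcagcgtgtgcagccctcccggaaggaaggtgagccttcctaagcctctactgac
Slc18a3, chr14:32464801-32465100, minus strand: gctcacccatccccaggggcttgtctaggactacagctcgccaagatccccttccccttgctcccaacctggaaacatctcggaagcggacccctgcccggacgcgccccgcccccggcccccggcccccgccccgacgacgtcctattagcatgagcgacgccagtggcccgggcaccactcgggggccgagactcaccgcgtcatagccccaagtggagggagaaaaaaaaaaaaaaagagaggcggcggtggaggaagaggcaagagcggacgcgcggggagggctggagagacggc
Hbb-bs, chr7:103827879-103828178, minus strand: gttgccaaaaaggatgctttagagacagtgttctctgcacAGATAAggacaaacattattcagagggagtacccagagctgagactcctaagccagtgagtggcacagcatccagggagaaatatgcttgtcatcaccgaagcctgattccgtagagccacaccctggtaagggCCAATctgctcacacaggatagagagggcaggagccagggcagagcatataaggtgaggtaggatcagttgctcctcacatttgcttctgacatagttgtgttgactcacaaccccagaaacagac
Alas2, chrX:150547167-150547466, plus strand: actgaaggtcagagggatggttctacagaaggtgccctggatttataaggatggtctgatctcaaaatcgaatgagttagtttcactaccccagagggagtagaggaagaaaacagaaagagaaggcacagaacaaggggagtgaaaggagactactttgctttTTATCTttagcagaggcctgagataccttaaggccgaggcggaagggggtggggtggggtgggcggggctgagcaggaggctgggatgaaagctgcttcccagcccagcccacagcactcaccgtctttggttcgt

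The Chat and Slc18a3 starts lie 1059 bases apart on the same strand, in the shared cholinergic gene locus. The Chat window holds CCAAT beginning at -181 and -157 relative to the start, and the Slc18a3 and Lhx4 windows hold none of the 3 motifs. Hbb-bs has AGATAA at -210 and CCAAT at -76, and Alas2 has the reverse complement of AGATAA at -86. Across all 32851 RefSeq promoter windows of this length, 37.4% hold CCAAT, 11.2% AGATAA and 5.29% TAATTA. Among the windows of listed red cell genes, 7 of 11 hold CCAAT and 3 hold AGATAA. For the motor neuron transcription factors the counts were 11 and 1 of 26 windows, from 14 genes, and 1 of them holds TAATTA. A match of letters is a description and shows no binding.

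Across all genes, few differences passed the test. With limma (a model of 4 group means over all 6 arrays, Benjamini-Hochberg over the 32513 probes, threshold 0.05), 182 probes were called (0.56%). Taking each gene at its brightest probe, 97 genes were called (0.663% of 14628), of which 38 rose in motor neurons (0.26%) and 59 fell (0.403%). Of the 38 that rose, 21 were above background on all 3 arrays and 17 were below it in GFP-off cells. Of the 59 that fell, 8 were above background on all 3 arrays, and 47 were below background on both motor neuron arrays. A gene seen in 1 fraction only entered the test through that fraction, so its p-value is no support apart from the filter. A further 242 higher and 646 lower genes had an adjusted p from 0.05 to 0.1, and 3398 genes had an unadjusted p below 0.05. Without motor neuron replicate 1, or without replicate 2, 1 array stood against 1 and the knockout-labelled pair alone gave the spread. The calls of such a fit cannot show whether a rise or fall named below rests on both arrays. Of 105 named genes, the sign of the difference turned for 1 and 6 in these fits. With the 3 wild-type-labelled arrays fitted alone, 455 genes were called. An exact permutation test of 2 arrays against 1 cannot give a p below 0.333, which leaves single genes to the spread estimated across genes, and the lone GFP-off array was assumed to vary like the motor neuron arrays. Without any test, both motor neuron arrays lay above the GFP-off array for 31.8% of genes and below it for 44.9%, and for 38.3% and 37.6% of the genes above background on all 3 arrays. The median gene difference was -0.22. Scaling by array medians left 22.3% of 3811 called probes on the higher side, against 94 of 182 with the 75th percentile. The same choice moved the median gene difference from -0.22 to -0.65, quantile normalization moved it to -0.38, and the authors' own scaling to -0.32. The sign of a list's median held under these 3, under normexp background correction and without either motor neuron replicate, except where said. List medians include members below background in motor neurons at their measured signal, and the median over members above background on all 3 arrays is given where it is far from the other.

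Listed motor neuron transcription factors stood mostly above the GFP-off level. This list, like the others, was chosen with earlier results of these data known, so its counts and median are descriptions only. Of 19 listed, 16 were measured, 4 rose, 1 fell and 11 did not pass the test; both motor neuron arrays were above the GFP-off array for 12 and below it for 2, and the median difference was 1.11, against -0.22 for all genes. Lhx4, the LIM-homeodomain partner of Isl1 in early motor neurons, gave 0.15 and 0.13 in motor neurons and -3.85 in GFP-off cells. It rose by 3.99 ± 0.62 (SE, n = 2 against 1, adjusted p = 0.0484, limma), a 15.9-fold difference. Its relative Lhx3, which also serves V2 interneurons, gave 1.33 and 0.52 against -1.50. The groups did not overlap, but the difference of 2.43 ± 0.70 did not pass (adjusted p = 0.109).

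Both estrogen-related receptor genes of the list rose, orphan nuclear receptors of which Esrrg is known as a marker of gamma motor neurons. Esrrg gave 1.42 and 1.92 in motor neurons and -2.80 in GFP-off cells, a rise of 4.47 ± 0.62 (adjusted p = 0.0425). A second Esrrg probe rose by 4.14. Esrrb gave 2.35, 1.40 and -2.30 in the same order and rose by 4.17 ± 0.67 (adjusted p = 0.0494). Onecut2, a cut-homeodomain factor of newborn motor neurons, gave 3.41 and 3.57 against -0.75 and rose by 4.24 ± 0.60 (adjusted p = 0.0437). In all 3 the motor neuron arrays were within 1 log2 unit of each other, and the lower of them stood 4.22, 3.70 and 4.16 above the GFP-off array. Onecut1 and Onecut3, the relatives of Onecut2, each had a probe that did not pass the filter. The one listed factor that fell was Ebf2, a helix-loop-helix protein of the COE family, at -1.55 and -1.44 against 2.77. It fell by 4.27 ± 0.63 on the log2 scale (adjusted p = 0.0437).

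Isl1, the factor on which motor neuron fate depends, gave -0.02 and 0.09 in motor neurons and -0.06 in GFP-off cells, 3 values within 0.15 of each other. Its difference was 0.09 ± 0.61 (adjusted p = 0.940), and its sign turned with median scaling (-0.33). Isl1 is also made by dorsal interneurons and sensory neurons. Isl2, its relative in postmitotic motor neurons, gave 1.23 and 0.00 against -0.47, with a difference of 1.08 ± 0.73 that did not pass. Pool and column factors lay between: Pou3f1, a POU factor of motor pools, differed by 1.88, Nkx6-1 by 1.38, Lhx1 of the lateral limb-innervating column by 1.12, and Foxp1 of the lateral motor column by 0.58, and none passed the test. Another Foxp1 probe was lower on both motor neuron arrays (-1.09), and a further one differed by 0.35. Etv4, of limb motor pools, gave 3.27 and 2.72 against 1.89 and did not pass. Runx1 (0.22), Zeb2 (-0.39) and Mecom (-0.44, with 1 of 2 motor neuron arrays above background) made up the rest. Other probes gave -2.34 for Runx1 and -2.01 for Etv4, each below background on both motor neuron arrays, and 1.17 for Zeb2.

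The cholinergic genes followed the same direction without passing. Of 15 listed, 11 were measured and none rose or fell; both motor neuron arrays were above the GFP-off array for 9 and below it for 1, but 2 of the 11 were below background on both motor neuron arrays and 3 on one. The 6 seen on all 3 arrays were all higher on both motor neuron arrays, with a median difference of 1.66 (1.04 over the 11, and 0.62 with quantile normalization). Chat gave -0.74 and 0.05 in motor neurons and -3.84 in GFP-off cells, a difference of 3.49 ± 0.65 (11.3-fold, adjusted p = 0.0578). Slc18a3, read from the same locus, gave 1.46 and 0.82 against -2.17, a difference of 3.32 ± 0.64 (9.96-fold, adjusted p = 0.0601). The lower motor neuron array stood 3.10 above the GFP-off array for Chat and 2.99 above it for Slc18a3. Ache, which breaks acetylcholine down, gave -2.20 and -0.94 against -4.08, with 1 of the 2 motor neuron arrays above background. The choline transporter Slc5a7 was below background on both (-3.37 and -3.46, against -3.91). Prima1, the anchor of acetylcholinesterase, differed by 1.64, and the nicotinic receptor subunits Chrnb4 and Chrna4 by 1.68 and 0.26. Chrna3 was below background on both motor neuron arrays, and Chrnb2 on 1 of them. The peptide gene Calca went the other way (-2.10), with motor neuron values of -1.48 and -4.34 that lie far apart.

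**Figure D1:**
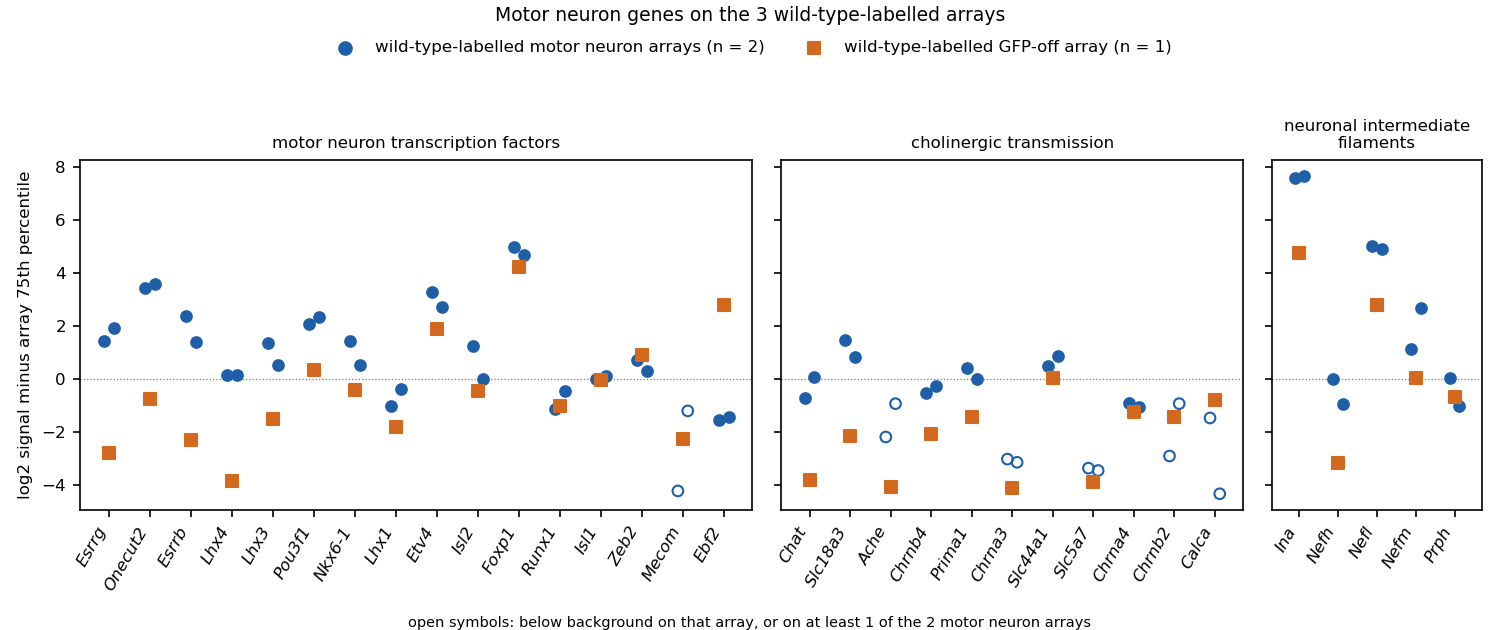
Log2 signal minus the array's 75th percentile for each measured motor neuron transcription factor, cholinergic gene and neuronal intermediate filament, with 1 circle per motor neuron array and 1 square for the GFP-off array, ordered by difference. Lhx4, Chat and Slc18a3 have both circles well above the square, Isl1 has all 3 symbols near 0, and Ebf2 has its square on top.

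Genes of the neuronal cytoskeleton and synapse were higher on both motor neuron arrays in most cases, and none passed the test. All 5 intermediate filament genes were measured, with a median difference of 2.15 (1.31 with normexp correction) and both arrays above the GFP-off level for 4. Ina, alpha-internexin, gave 7.57 and 7.65 against 4.74; Nefh, the heavy neurofilament, -0.01 and -0.95 against -3.19; and Nefl, the light one, 5.01 and 4.90 against 2.80. Peripherin (Prph), the filament of neurons with axons outside the cord, did not follow them: it gave 0.04 and -1.02 in motor neurons and -0.70 in GFP-off cells, so the groups overlapped. Of the 20 general neuronal genes, all measured, both motor neuron arrays were above for 13 and below for 3, with a median of 1.37 (0.81 with normexp correction). The largest differences were those of Snap25, a protein of vesicle fusion (3.67 ± 0.94), the microtubule protein gene Mapt (3.38 ± 0.63; 1.39 on its least different probe), Map2 (2.56) and Syt1 (2.39). Tubb3, class III tubulin, gave 6.31 and 5.86 against 5.75. Doublecortin (Dcx), a marker of newly born neurons, was lower on its brightest probe (-1.15) and higher on 2 other probes (1.598 and 1.98).

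Receptors for trophic and guidance cues were mixed. Of 12 trophic receptors, 8 were higher and 3 lower on both motor neuron arrays, with a median of 1.11 (0.41 with normexp correction, 0.73 without replicate 1) and none past the test. Gfra1, the GDNF co-receptor, gave 0.39 and 1.90 against -0.72, while its signalling partner Ret gave 0.27 and -2.40 against -2.85, with 1 of 2 motor neuron arrays above background. Il6st, the gp130 subunit shared by CNTF and LIF receptors, was below background on both motor neuron arrays and at 1.40 in GFP-off cells. It was at least 12.6-fold lower and just outside the threshold (adjusted p = 0.0506, limma), having entered the test through the GFP-off array alone. Of 26 axon guidance genes, 13 were higher and 9 lower on both arrays and the median was 0.09, with its sign turned by median scaling (-0.33), quantile normalization (-0.02), normexp correction (-0.46) and the authors' scaling (-0.01). The netrin receptor genes Unc5a (3.73 and 2.92 against 0.40) and Dcc (9.13 and 10.56 against 8.19) lay highest in difference, and the semaphorin receptor Nrp1 lowest, at least 3.14-fold lower with both motor neuron arrays below background.

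Hox genes, which set position along the cord, were split: of 36 listed, 35 were measured, 15 were higher and 16 lower on both motor neuron arrays, the median was -0.03 (0.27 without motor neuron replicate 1 and -0.34 without replicate 2) and none of these passed. Hoxa13, which the list leaves out and which is named here after its values were seen, did pass: it gave 0.60 and 0.61 against -3.78 and rose by 4.38 ± 0.64 (adjusted p = 0.0437), while the knockout-labelled difference was -0.39. The largest positive differences in the list were those of the caudal genes Hoxb13 (4.12 ± 1.64), Hoxc13 (3.44 ± 1.61) and Hoxc11 (2.96 ± 0.70). Hoxb2 was the lowest (-0.50 and -1.17 against 2.19). Hoxc13 gave -2.26 and 2.43 in knockout-labelled motor neurons, which lie further apart than the groups compared here.

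Interneuron genes, too, stood mostly above the GFP-off level in the GFP-on fraction. Of 23 listed genes of ventral and inhibitory interneurons, 19 were measured, 3 rose, none fell, and both motor neuron arrays were above the GFP-off array for 17 and below it for 1, with a median of 1.66. Evx1, the homeobox gene of V0 interneurons, gave 1.42 and 0.74 against -3.90 and rose by 4.98 ± 0.64 (adjusted p = 0.0409). Foxd3, a forkhead factor of V1 interneurons that also stands in the dorsal interneuron and neural crest lists, gave 1.97 and 2.10 against -2.12 and rose by 4.16 ± 0.60 (adjusted p = 0.0437). Sox14, of V2b interneurons, gave -1.08 and -0.86 and was below background in GFP-off cells, at least 17.6-fold higher (adjusted p = 0.0437, limma). It entered the test through the motor neuron arrays alone, so that p-value is no support apart from the filter. Pax8 (2.30), Foxp2 (2.47), Pax2 (1.89) and the vesicular inhibitory transporter Slc32a1 (1.71) were higher without passing, while Gad1, which makes GABA, gave -0.87 and -1.99 against -1.06. Summed over the list on the linear scale, the signal was 63.6 and 72.7 times the 75th percentile on the motor neuron arrays and 23.1 times on the GFP-off array. Of 17 listed dorsal interneuron genes, 14 were measured; Foxd3 rose, both arrays were above for 9 and below for 3, and the median was 0.87. The dorsal factor Lhx9 gave -0.78 and 1.66 against -2.52, and Slc17a6, the glutamate transporter of excitatory neurons, -1.44 and -2.16 against -0.16.

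Neural crest, Schwann cell and sensory neuron genes stood above the GFP-off level as well. Of 16 listed, 14 were measured, Foxd3 rose, and both motor neuron arrays were above for 9 and below for 3, with a median of 1.42 (0.77 with normexp correction). Sox10, the defining factor of crest-derived glia, gave 4.16 and 3.96 against 0.45, a difference of 3.61 ± 0.74 (adjusted p = 0.0640). The summed linear signal of the list was 103 and 82.2 times the 75th percentile in motor neurons and 50.6 times in GFP-off cells. The part that such cells, or interneurons, in the GFP-on gate had in the motor neuron values was not tested.

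Genes of dividing cells were lower in motor neurons, without passing the test. Of 22 proliferation genes, all measured, 2 were higher and 16 lower on both motor neuron arrays, with a median of -1.06 (-1.73 without motor neuron replicate 1 and -0.44 without replicate 2). Top2a, the topoisomerase of mitotic chromosomes, gave -1.65 and -1.61 against 1.06, and Ccnd1, cyclin D1, 0.53 and 0.65 against 3.27. Mki67, the proliferation antigen, went the other way on its brightest probe (0.36) and not on another (-1.59). The replication helicase genes Mcm2 to Mcm7 ranged from -2.27 to -0.69. In 19 of the 22 genes, replicate 1 was above replicate 2. Of 26 listed progenitor genes, 21 were measured, 6 were higher and 11 lower on both arrays, and the median was -0.56 (0.03 with normexp correction, and 0.03 over the 13 seen on all 3 arrays). No probe of the progenitor genes Pax6, Olig1 and Olig2 passed the filter, so they are not among those measured. Sox9, of progenitors and glia, gave -1.28 and -3.10 against 1.71, and the radial glia genes Fabp7 and Slc1a3 differed by -1.45 and -1.82. Nes, nestin, was higher (1.26). Of 12 listed floor and roof plate genes, 10 were measured, 1 was higher and 7 lower on both arrays, with a median of -1.35 (0.61 with normexp correction, -2.16 and -0.70 without replicate 1 or 2); 6 of the 10 were below background on both motor neuron arrays, and the roof plate signal Wnt1 was the higher one (2.54).

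Red cell genes gave the lowest median of any list, -2.68, with all 12 measured members (of 17 listed) lower on both motor neuron arrays; 2 fell and 10 did not pass. Hbb-b2, an adult beta-globin gene, gave 0.05 and 0.29 in motor neurons and 5.71 in GFP-off cells and fell by 5.54 ± 0.60 on the log2 scale (46.6-fold, adjusted p = 0.0355). Hbb-bs, an adult beta-globin gene whose promoter is shown above, gave -3.31 (below background) and -1.62 against 3.76 and fell by 6.22 ± 0.81 (adjusted p = 0.0409, limma). Hbb-bt, another adult beta-globin gene and brighter, gave 6.63 and 5.98 against 8.88. Its difference of -2.58 ± 0.64 did not pass (adjusted p = 0.0867, limma). Globin genes are near-identical copies and their probes may share transcripts, so the split between them is uncertain. Embryonic Hba-x (1.62 and 2.11 against 5.34) and Hbb-bh1 (0.57 and 1.003 against 3.79) lay 3 or more log2 units lower, with adjusted p of 0.0663 and 0.0753. Alas2 gave -0.39 and -0.01 against 2.58, and the anion exchanger Slc4a1 -0.63 and -0.62 against 1.61. The erythroid factor Gata1 was below background on both motor neuron arrays. Hba-a2 was the exception, at 9.88 and 10.05 against 10.08, so the summed linear signal of the list, which that probe leads, was 1356 and 1411 times the 75th percentile in motor neurons and 2930 times in GFP-off cells.

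Mesenchymal and meningeal genes were lower throughout but by less: 14 of 15 measured were below the GFP-off array on both motor neuron arrays, 1 was above, none passed, and the median was -1.26 (-1.97 without motor neuron replicate 1 and -0.70 without replicate 2). The collagen gene Col1a1 gave 5.98 and 5.57 against 6.84, decorin (Dcn) 4.58 and 3.68 against 5.28, and Pdgfra 1.56 and 0.78 against 3.55; Twist1 was the one above. Their summed linear signal was 455 and 327 times the 75th percentile in motor neurons against 748 times. Skeletal muscle genes split the motor neuron replicates: the contractile genes Actc1 (5.92 and 3.41 against 5.50), Myl1 (3.68 and 1.21 against 2.38) and Myh3 (4.19 and 1.62 against 2.66) were above the GFP-off array on replicate 1 and below it on replicate 2. Summed over the 12 measured genes (of 14 listed) the signal was 174 and 39.8 times the 75th percentile against 119 times, and the median difference was -1.04 (-1.64 and -0.20 without replicate 1 or 2, -0.56 with normexp correction, and -0.12 over the 8 seen on all 3 arrays). Endothelial genes (12 measured, 3 higher and 5 lower, median -0.65, or 0.29 with normexp correction and 0.39 over the 4 seen on all 3 arrays) and microglial genes (12 of 14 measured, 4 higher and 3 lower, median -0.12, or 0.43 with normexp correction and 0.10 and 0.09 without replicate 1 or 2) gave no change past the test. Cdh5, VE-cadherin, was below background on both motor neuron arrays. Kdr was at 3.80 and 6.80 against 4.22 and lower on another probe (-0.997), and the integrin gene Itgam, at 8.82 and 9.55 against 5.67, had other probes that were below background on both motor neuron arrays or on 1 of them, so neither stands for its list.

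Immediate early and stress genes, which respond to handling of cells, were lower on both arrays for 8 of 11 measured (14 listed) and higher for 2, with a median of -1.32 (-0.20 with normexp correction); 5 of the 11 were below background on both motor neuron arrays. Fos was below background on both motor neuron arrays and at 1.48 in GFP-off cells, at least 13.3-fold lower, and fell (adjusted p = 0.0490, limma). It entered the test through the GFP-off array alone, so that p-value is no support apart from the filter. Egr1 gave 0.11 and -1.60 against 2.98 and did not pass (adjusted p = 0.0753). Jun gave 5.33 and 5.49 against 4.91. Over the 19 lists, 292 of 328 distinct genes were measured and 11 passed the test, 7 higher and 4 lower; 86 of the 97 genes called stood in no list.

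**Figure D2:**
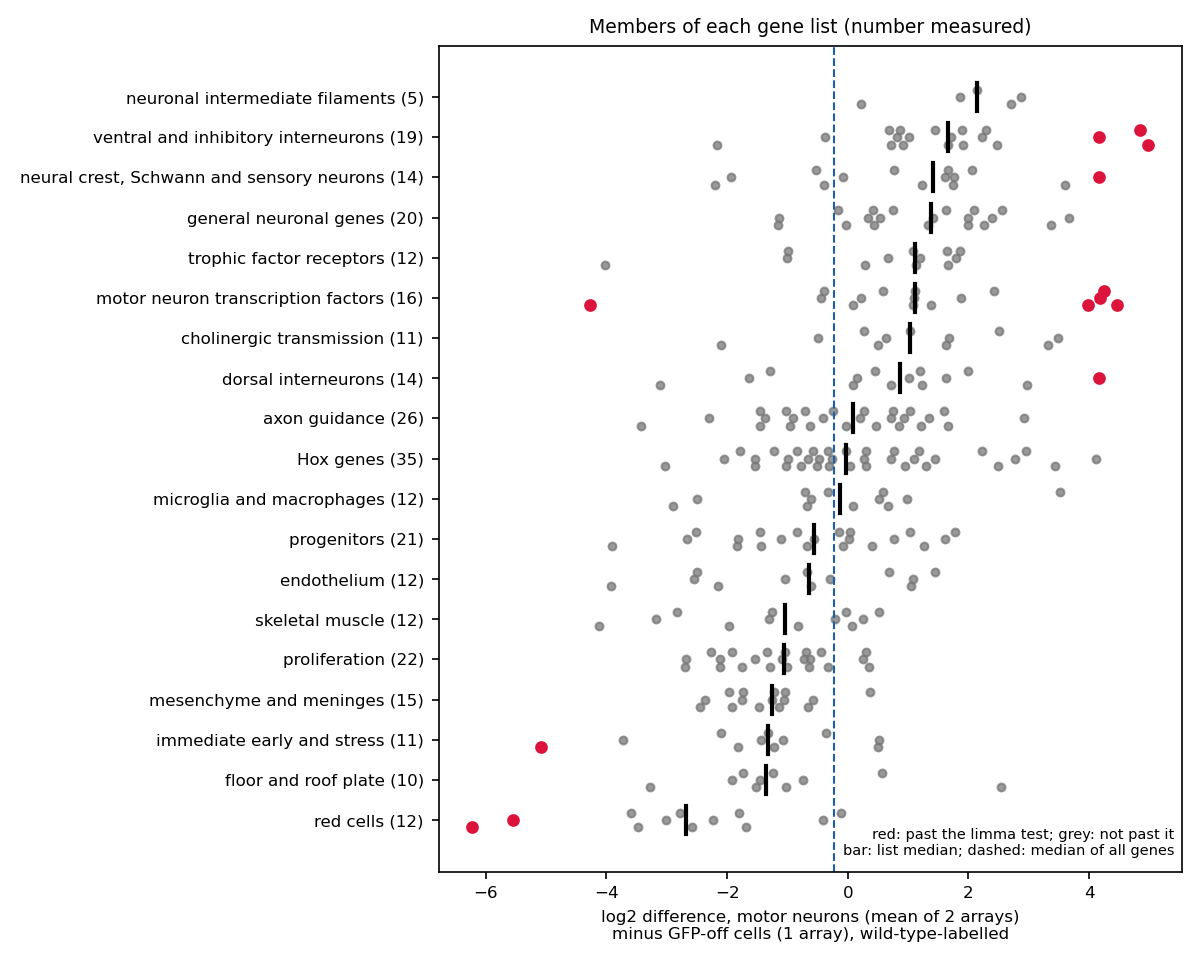
Each point is 1 measured list member, placed by its log2 difference between wild-type-labelled motor neurons (mean of 2 arrays) and GFP-off cells (1 array), with red points past the test, a bar at the list's median and a dashed line at the median of all genes (-0.22). Neuronal lists have medians up to 2.15, proliferation, mesenchyme and red cell lists have medians from -1.06 down to -2.68, and few points are red.

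The genes with the largest differences were mostly outside these lists. Ranked by the smaller of the 2 array differences among genes above background on all 3 arrays, Syt10, a synaptotagmin of vesicle release, came first: 7.93 and 8.70 in motor neurons and -1.45 in GFP-off cells, a rise of 9.77 ± 0.97 (adjusted p = 0.0355). Acot3, a peroxisomal thioesterase, gave 3.50 and 4.25 against -2.52. Rsph4a, a radial spoke protein of motile cilia, gave 2.60 and 3.26 against -3.40, and Cfap44, another ciliary gene, 1.42 and 1.65 against -3.56. Nr5a2, an orphan nuclear receptor, gave 0.81 and 1.25 against -3.70. All of these rose, as did Pgbd1 (by 5.13), Pcmtd1 (by 4.82) and Evx1.
Probes of 1 gene did not always move together. Inpp5e, a phosphatase of cilia, rose by 6.99 on its brightest probe, while its other probes differed by 0.80 and -0.95. Adra1b, an adrenergic receptor, rose by 6.02 on one and differed by 2.06 on the other. The same held for Taf7, a subunit of TFIID, which fell by 6.33 on one probe and differed by -0.57 on another that was below background in motor neurons.

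Among lower genes ranked the same way, 8 passed. Itm2a, a membrane protein gene, gave -0.02 and -1.62 in motor neurons against 5.06 and fell by 5.88 ± 0.80 (adjusted p = 0.0420). P4hb, protein disulfide isomerase, gave -1.06 and -1.09 against 3.38, the ETS factor Ets2 -1.64 and -1.53 against 2.36, and the lysosomal gene Psap -0.97 and -1.92 against 2.77; all 3 fell. Rasl2-9, a Ran-like GTPase gene, fell by 4.32, with -0.83 on its other probe. Cnbp (-3.83) and Tns3 (-3.90, with 0.11 on another probe) followed in rank and did not pass.

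Where a gene was below background on all arrays of 1 fraction, it had entered the test through the other fraction alone. Only a bound on its fold can then be given: the mean of the brighter fraction against the lowest signal called above background in the other, or the gene's own signal where that was higher. Among higher genes the largest bounds were those of Prm1, the sperm protamine gene (at least 171-fold, 1.93 and 2.68), Ms4a5 (at least 100.1-fold), Slc16a5 (at least 62.7-fold, not past the test), Smcp, of sperm mitochondria (at least 51.0-fold), and Fthl17f (at least 35.1-fold, not past the test). Among lower genes Oas1h, of the oligoadenylate synthetase family, was at 7.02 in GFP-off cells and at least 621-fold lower in motor neurons. The angiotensin receptor Agtr2 (at least 19.6-fold), the mitochondrial complex I gene Ndufs8 (at least 18.7-fold), the matrix protease Mmp2 (at least 18.6-fold) and the cartilage matrix gene Comp (at least 14.97-fold) fell too.

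**Figure D3:**
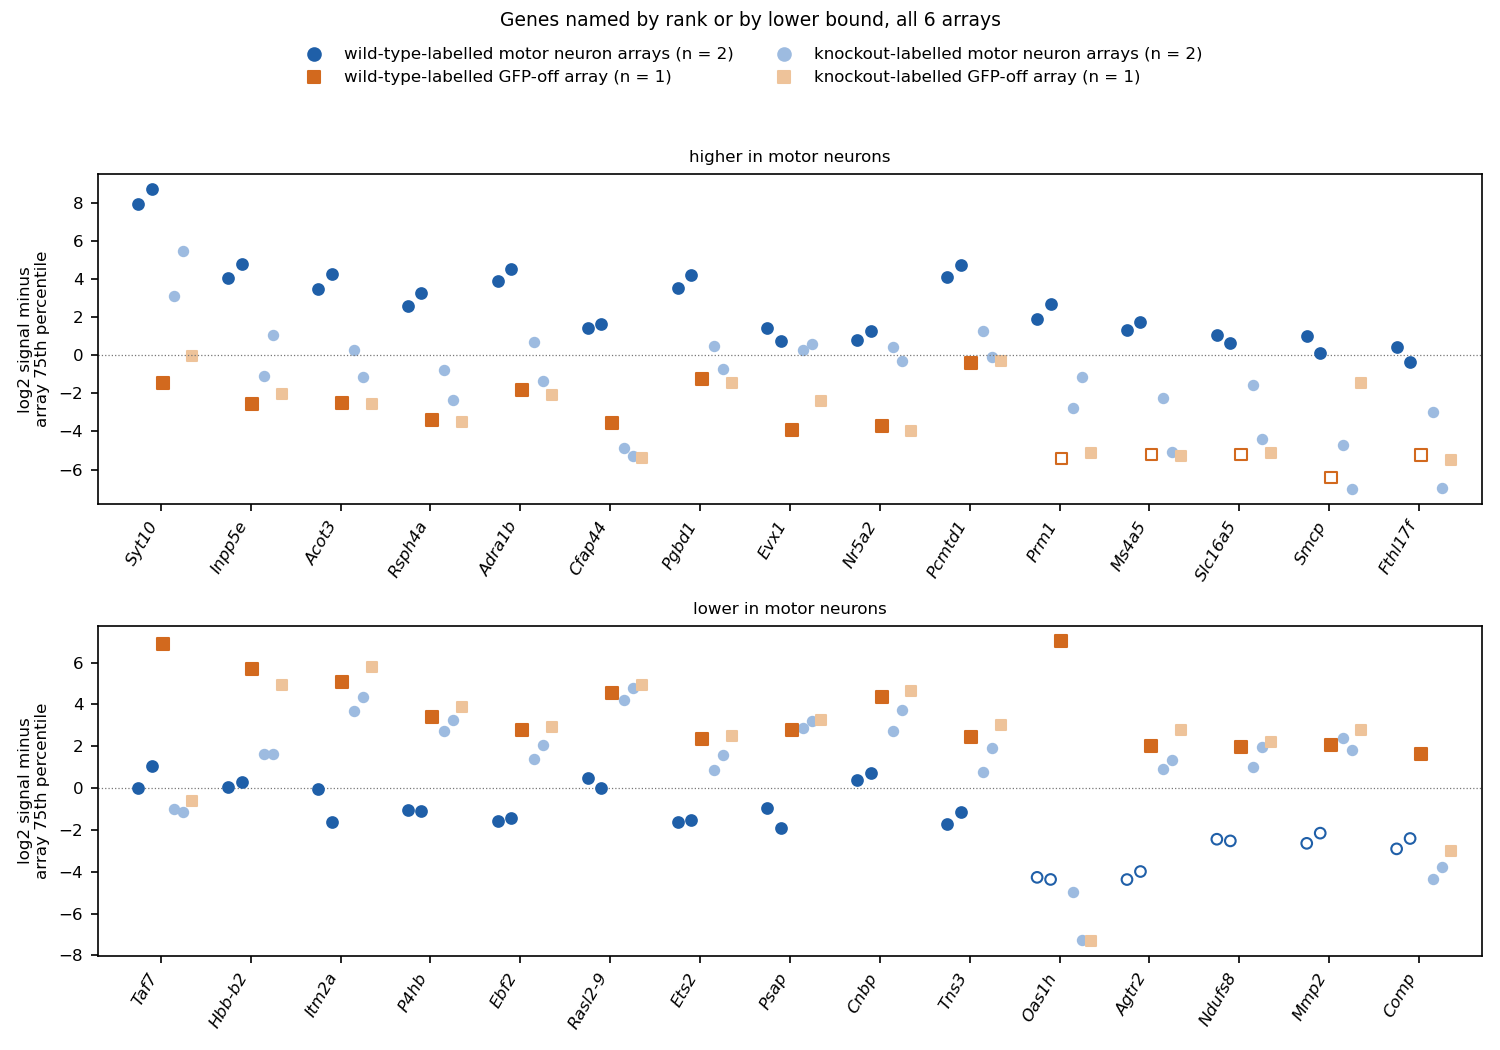
Log2 signal minus the array's 75th percentile on all 6 arrays for the genes named by rank and by lower bound, with dark symbols for wild-type-labelled and pale symbols for knockout-labelled arrays, circles for motor neurons, squares for GFP-off cells, and open dark symbols below background. Syt10 is high on all 4 motor neuron arrays, whereas Oas1h is high on the wild-type-labelled GFP-off array alone.

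The same cell fractions on the knockout-labelled arrays share no array with the comparison above, so their values stand beside it as a second set. Of the 38 genes that rose, 35 were higher on both knockout-labelled motor neuron arrays than on the knockout-labelled GFP-off array and 2 were lower on both; of the 59 that fell, 47 were lower on both and 6 were higher on both. Over all 14628 genes, 33.6% were higher and 42.8% lower on both. On the wild-type-labelled arrays, 17 genes that rose were below background in GFP-off cells. Likewise 47 that fell were below it on both motor neuron arrays. The counts were not split by that, and the shares are over genes of every filter class. They also rest on sign alone and do not ask for signal above background on the knockout-labelled arrays. Cfap44 and Cyp2c67, for instance, count as higher there though below background on every knockout-labelled array. Across the 10160 genes above background on all 6 arrays, the differences of both sets correlated with r = 0.554, as a description over genes. Lhx4 differed by 3.89 on the knockout-labelled arrays, Chat by 2.97, Slc18a3 by 3.77, Lhx3 by 3.24, Esrrg by 4.26, Foxd3 by 4.54 and Sox10 by 4.36. These lie within 1 log2 unit of the wild-type-labelled differences. Hbb-b2 differed by -3.34, Hbb-bs by -4.49, Alas2 by -3.27 and Hba-x by -2.78, with all 12 red cell genes lower on both arrays.

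Other genes gave unlike values in the 2 sets, and none of them passed the test of that difference. Isl1 gave 2.30 and 2.66 in knockout-labelled motor neurons and 0.84 in GFP-off cells, a difference of 1.64 against 0.09 above. Prph gave 3.81 and 3.84 against -0.32, a difference of 4.15 against 0.21; the change between sets was -3.93 ± 0.96 (SE, adjusted p = 0.524, limma interaction). Ccnd1 differed by 0.13 and Ebf2 by -1.17 there. Smcp was above background in knockout-labelled GFP-off cells alone, and Cfap44 and Oas1h were below it on all 3 knockout-labelled arrays. The test of the difference between sets called none of 35296 probes with limma (0%, smallest adjusted p 0.524), with 3220 at an unadjusted p below 0.05; with median scaling it called 285 and with normexp background correction 1. The fraction comparison on the knockout-labelled arrays alone also called 0 of 35296, with 2500 at an unadjusted p below 0.05. All 3 wild-type-labelled arrays shared slide row 2 with the knockout-labelled GFP-off array, and row 1 held the knockout-labelled motor neurons.

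**Figure D4:**
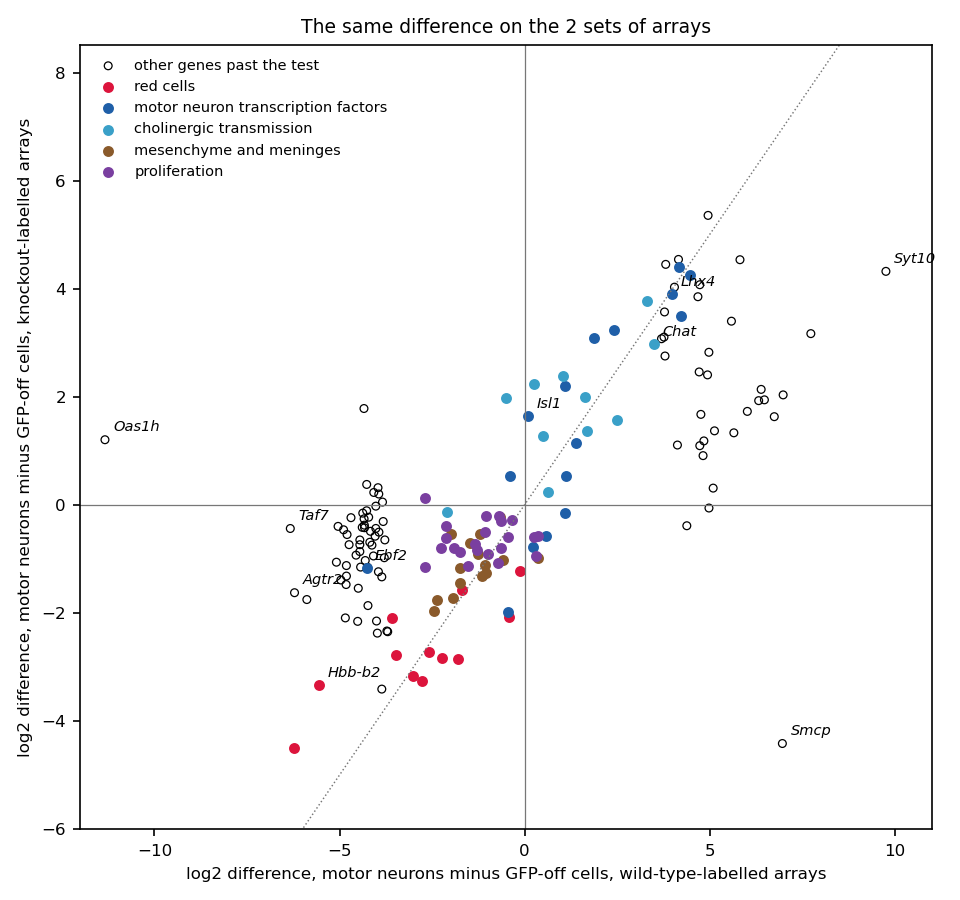
Log2 difference between motor neurons and GFP-off cells on the knockout-labelled arrays (vertical axis) against the same on the wild-type-labelled arrays (horizontal axis) for members of 5 lists and for other genes past the test; the dotted line marks equal differences. Lhx4 lies on the line, red cell genes lie low on both axes, Isl1 is near 0 on the horizontal axis alone, and Syt10, Oas1h, Taf7 and Smcp lie far from the line.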

How the data were processed

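Cy3-labelled RNA of each sample was read on 1 array of a single Agilent mouse slide. The scanner software was Agilent Feature Extraction, version 10.5.1.1 per the file headers and 9.1 per the submitters' processing notes. The deposited processed signal is an intensity, background-subtracted by the authors' scanner software and not scaled between arrays, and the deposited flags are of other kinds, present or absent per spot. The authors' log2 value table equals the values used here up to a constant per array (within 0.01). No spot was saturated. Log2 processed signals were averaged over unflagged spots of a probe, and the array's 75th percentile was subtracted. Probes were named through their RefSeq accession (GRCm38.p6 table): 26300 of 55681 matched one of 19897 genes and 29381 did not, so unmatched probes are not named. The file headers name mm9, so no probe coordinates are given.

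Differences were tested with limma (3.58.1, R 4.3.3) on 4 group means over 6 arrays, with Benjamini-Hochberg adjustment over all probes kept. The residual spread comes from the motor neuron pairs, and the steps were tested on simulated data. A gene was read at its brightest kept probe. Named genes were the 10 highest and 10 lowest by rank, 5 per direction by lower bound, the markers, and the 4 most different members of each list; other list members, among them those with small or opposite differences, were added after their values were seen. A few genes are not reported here. Members and lists were chosen with earlier results of these data known. Alternatives were 3 other scalings, background correction, filters, the prior, other probes and leaving out each array. Precision is limited by the number of arrays.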

Additional observations from a re-analysis of the deposited data

How the results depend on the processing

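How many probes and genes pass depends heavily on the setting. Against 182 probes (97 genes) in the comparison reported, fitting the wild-type-labelled arrays alone called 1033 probes (455 genes) and included all 182; an intensity trend in the prior called 1106 (564), the authors' values 804 (382), median scaling 3811 (1954), and requiring all 3 arrays above background 1749 (753). Normexp background correction called 164 (62), of which 39 probes were shared, and testing 1 probe per gene called 516 genes. Quantile normalization and no filter called 0 probes and 0 genes with limma, with 7933 and 8000 probes at an unadjusted p below 0.05. Leaving out 1 motor neuron array left 1 pair of replicates to give the spread, so counts of calls cannot show what an array contributes. The authors' values differ from those used only by a constant per array, between replicates too, so both the differences and the residual spread moved. Of the probes called, 94 of 182 were higher; the share was 22.3% with median scaling, 37.9% with the authors' table, 40.9% with normexp correction and 65.8% with all 3 arrays above background. The difference between the wild-type and knockout labels called 0 probes, 285 with median scaling and 1 with normexp correction.

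Of 105 named genes, the sign turned for 1 with median scaling, the authors' table and normexp correction each, and for 1 and 6 without motor neuron replicates 1 and 2. Isl1 was -0.33 with median scaling and -0.0067 with the authors' table, and Flt1 was 0.042 with normexp correction. Leaving out 1 motor neuron replicate at a time, Csf1r ranged from -1.33 to 0.12, Mir17hg from -1.07 to 4.09, Spon1 from -0.26 to 1.39, Kdr from -0.42 to 2.58, Flt1 from -1.24 to 0.0071, Esam from -0.69 to 0.088 and Actc1 from -2.09 to 0.43. Of the 18 genes with a second probe, 7 turned and 3 lost the call: Inpp5e was -0.95, Tns3 0.11, Ntn1 1.13, Runx3 -1.47, Kdr -0.997, Itgam -0.071 and Csf1r 1.61. The cause was not tested. No paired analysis was possible because the comparison has only 1 GFP-off array. The arrays that share a tag are replicate 1 and the GFP-off array, so the difference within the tag is that without replicate 2. Its median over all genes tested was -0.06. Motor neuron signals were dim, so transcripts below their floor have only a bound.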

Other observations

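Several genes past the test stood in no list and outside the naming rule; they are given as values and were chosen after their values were seen. Those below background in GFP-off cells entered the test through the motor neuron arrays alone. For them, passing it is no support apart from the filter. The homeobox genes Dlx1, Six3 and Dmbx1, known from the forebrain or midbrain, were higher in motor neurons and below background in GFP-off cells: Dlx1 gave 0.02 and -0.55 and was at least 28.7-fold higher, Six3 gave -0.19 and -0.91 and was at least 23.6-fold higher, and Dmbx1 gave -0.10 and -0.83 and was at least 24.99-fold higher. On the knockout-labelled arrays Dmbx1 differed by 4.54 and Dlx1 by 1.94, and Six3 was below background on all 3. Sncg, gamma-synuclein, gave 4.98 and 4.51 against 0.93, and the calcium pump Atp2b2 4.12 and 4.69 against -0.32 (2.38 on another probe). The calcium channel gene Cacna1b was at least 17.2-fold higher, the matrix gene Tnr at least 16.9-fold, the neuregulin Nrg3 at least 15.8-fold, the ghrelin receptor Ghsr at least 11.1-fold and the neuropeptide gene Nms at least 24.0-fold. The knockout-labelled difference was 4.45 for Sncg. Nrg3, Nms and Ghsr were again above background in motor neurons and below it in GFP-off cells on the knockout-labelled arrays.

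Genes below background on both motor neuron arrays entered the test through the GFP-off array alone. Passing it is then no support apart from the filter. Among such genes that fell were the small proteoglycan genes Epyc (at least 7.24-fold lower) and Aspn (at least 4.42-fold), the limb and heart factor Tbx5 (at least 3.29-fold), the activin subunit Inhba (at least 7.84-fold) and the chemokine Cxcl13 (at least 4.24-fold). All 5 were lower on the knockout-labelled arrays too, by differences from -2.09 (Epyc) and -2.37 (Aspn) to -1.86 (Cxcl13), where Epyc was above background on 1 of 2 motor neuron arrays. Tfam, a mitochondrial DNA factor, was at least 13.5-fold lower on its brightest probe, was below background on both motor neuron arrays on its other probes too, and differed by -0.46 on the knockout-labelled arrays. Map2k1, a kinase of the MAP kinase cascade, was at least 7.48-fold lower and differed by -0.74 there. Of the 182 probes called, 68 matched no gene name.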
